A study of Mus musculus with 2 samples.

Results

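H2AZ peaks with the highest scores at the ends of single genes were drawn from a ChIP-seq map of neural progenitor cells of the mouse brain. In ChIP-seq, chromatin is immunoprecipitated with an antibody and the recovered DNA is sequenced, and stretches where reads pile up are called as peaks. The cells came from C57BL/6 embryos at embryonic day 13 and were crosslinked with formaldehyde. For this stage and tissue there was 1 library of the H2AZ immunoprecipitate and 1 of input DNA, and the title of the series places the work in a study of H2AZ and of Setd2, the methyltransferase of H3K36me3, in the proliferation and differentiation of these cells. The deposited values were 1 list of peaks with a score each.

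A peak was taken where its score was 25 or more and where it overlapped, by at least 1 bp, the 1 kb on either side of an end of exactly 1 protein-coding gene. This rule gave 912 peaks, at 912 different genes. Of the 21546 peaks used, 9282 lay at the ends of 1 protein-coding gene, so that the strongest were 9.83% of the single-gene peaks, and 10.1% of the 8998 genes with such a peak had one of them. These shares are fixed by the score limit and are the background for every count given here. The other 8370 single-gene peaks are the set against which the strongest are described. Altogether 1201 peaks scored 25 or more; 163 of them (13.6%) lay at the ends of 2 or more genes and 126 (10.5%) at no gene end, and neither kind is described further. With 1 library there was no replicate, so nothing was tested; intervals are 95% exact intervals that cover counting error only.

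H2A.Z is a variant of histone H2A that replaces it in a part of the nucleosomes, where it is put in place by the SRCAP and p400 remodelling complexes. In mammalian cells it is best known at the nucleosomes that flank the transcription start sites of genes, above all at promoters rich in CpG dinucleotides, and at enhancers. CpG-rich promoters are typical of housekeeping genes and of many developmental regulators, and mostly lack DNA methylation.

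The promoters of the 6 highest-scoring genes with a listed start show how different the DNA under the strongest peaks can be. Each sequence is the 250 bases before a RefSeq-listed start of the gene on GRCm38.p6, given on the strand of the gene, with every CpG in capitals, and all 250 bases lay inside the peak.
Uhmk1: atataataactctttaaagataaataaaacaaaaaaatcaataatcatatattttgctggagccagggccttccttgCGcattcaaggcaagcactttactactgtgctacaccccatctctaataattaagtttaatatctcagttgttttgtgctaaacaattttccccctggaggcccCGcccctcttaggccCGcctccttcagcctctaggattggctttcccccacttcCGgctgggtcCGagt
Stx17: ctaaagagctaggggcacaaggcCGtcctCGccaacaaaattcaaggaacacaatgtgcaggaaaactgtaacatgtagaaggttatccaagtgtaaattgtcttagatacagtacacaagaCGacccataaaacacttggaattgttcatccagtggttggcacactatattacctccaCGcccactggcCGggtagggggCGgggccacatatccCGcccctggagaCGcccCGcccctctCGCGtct
Usp25: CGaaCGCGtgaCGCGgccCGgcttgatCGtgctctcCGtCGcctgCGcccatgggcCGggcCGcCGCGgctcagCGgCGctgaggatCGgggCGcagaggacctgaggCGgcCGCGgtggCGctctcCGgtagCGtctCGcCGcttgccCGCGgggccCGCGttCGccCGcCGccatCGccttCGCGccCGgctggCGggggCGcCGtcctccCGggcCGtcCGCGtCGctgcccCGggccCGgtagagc
Pink1: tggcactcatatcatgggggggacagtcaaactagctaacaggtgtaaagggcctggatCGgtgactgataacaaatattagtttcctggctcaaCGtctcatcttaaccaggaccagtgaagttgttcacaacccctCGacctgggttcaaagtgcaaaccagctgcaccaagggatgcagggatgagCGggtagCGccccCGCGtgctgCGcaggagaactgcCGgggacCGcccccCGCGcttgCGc
Rnf169: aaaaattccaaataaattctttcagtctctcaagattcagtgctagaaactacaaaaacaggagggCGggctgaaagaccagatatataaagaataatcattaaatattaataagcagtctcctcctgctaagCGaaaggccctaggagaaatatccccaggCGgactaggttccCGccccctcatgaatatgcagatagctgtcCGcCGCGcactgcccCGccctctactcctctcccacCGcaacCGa
C1galt1: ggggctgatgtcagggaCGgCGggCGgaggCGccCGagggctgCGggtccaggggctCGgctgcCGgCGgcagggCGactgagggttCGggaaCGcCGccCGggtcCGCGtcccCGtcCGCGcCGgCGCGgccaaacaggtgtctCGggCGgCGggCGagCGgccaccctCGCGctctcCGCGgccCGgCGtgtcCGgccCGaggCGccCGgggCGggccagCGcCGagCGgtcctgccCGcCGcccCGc
The Uhmk1 stretch is chr1:170215408-170215657 on the minus strand and holds 5 CpG. The Stx17 stretch is chr4:48124669-48124918 on the plus strand, with 11 CpG. Usp25 has 47 CpG in chr16:77013819-77014068, plus strand, the most of the 6. Pink1 has 13 CpG in chr4:138326297-138326546, minus strand. Rnf169 has 10 CpG in chr7:99980459-99980708, minus strand. C1galt1 has 44 CpG in chr6:7844974-7845223, plus strand. In the 100 bases nearest the start lay 20 of the 47 CpG of Usp25 and 20 of the 44 of C1galt1, so that these promoters carried CpG over the whole stretch. Uhmk1 had 4 of its 5 there, Stx17 8 of 11, Pink1 10 of 13 and Rnf169 8 of 10, most of theirs. The listed start lay 490 bp from the outermost start of the gene in Uhmk1, 872 bp in Rnf169 and 385 bp in Usp25, and within 13 bp in the others. Their GC content was 80.0% in Usp25 and 82.8% in C1galt1, and 43.6% in Uhmk1. Observed over expected CpG in these stretches was 0.453 in Uhmk1 and 0.636 or more in the others. With the bases just after the start included, it was 0.644 in Uhmk1 and higher in the others. All 6 were then above 0.6, the usual limit for a CpG island. The stretches therefore differed in CpG density, and the rest of each peak was not read.

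Scores of the 912 strongest peaks had a median of 27.14 with quartiles of 25.91 and 29.13, and the highest was 38.78. The other single-gene peaks had a median of 15.81 with quartiles of 11.63 and 19.69. The score chose the strongest peaks, so these values describe the choice. Scores took 122 distinct values among the 912 peaks, with 59 peaks at 25.35, so ties in rank are common. There was no gap at the limit. Just inside it stood Znrf2 at 25 and 1810013L24Rik, Arhgap5, Bckdhb and Clns1a at 25.02, and just outside it 1110008P14Rik at 24.95, Ica1l at 24.94 and Anp32e, Mecr and Nhp2 at 24.84.

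**Figure D1:**
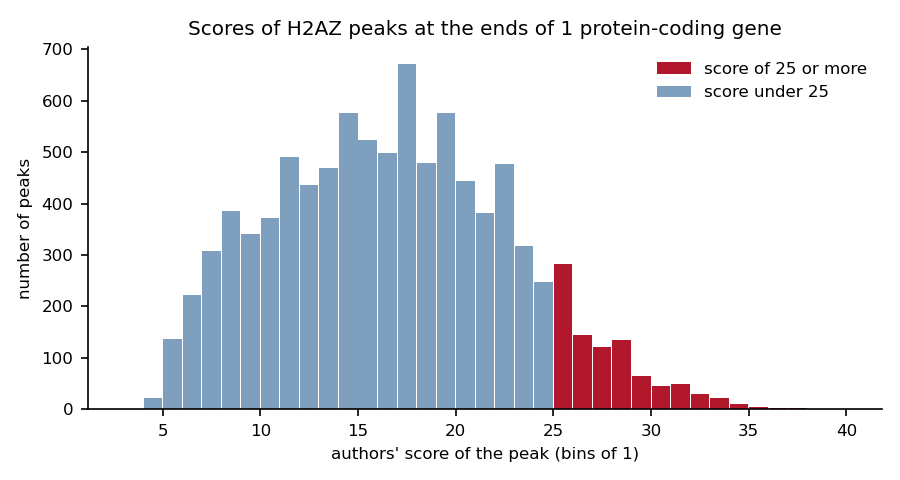
Number of H2AZ peaks at the ends of 1 protein-coding gene (y) in bins of 1 score unit (x), with peaks of score 25 or more in red and peaks under 25 in blue. The 912 red peaks are the upper tail of a continuous distribution that reaches 38.78, against a median of 15.81 for the blue peaks.

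The highest-scoring genes, predicted genes aside, were of many kinds, with kinases, ubiquitin enzymes and membrane proteins among them. Uhmk1, a kinase with an RNA-binding U2AF homology motif, had the highest score, 38.78. Stx17, a syntaxin that serves the fusion of autophagosomes with lysosomes, scored 37.58. Usp25, which removes ubiquitin from proteins, scored 37.29. Pink1, the kinase that marks damaged mitochondria for autophagy, and Rnf169, a RING finger protein that binds ubiquitylated chromatin at DNA breaks, both scored 36.69. C1galt1, which makes the core O-glycan of mucin-type glycoproteins, scored 35.92. Shq1, an assembly factor of H/ACA ribonucleoproteins, scored 35.88. Hip1r, which links clathrin coats to actin, and Vps8, a subunit of the endosomal tethering complex CORVET, scored 35.79. At 34.90 stood the actin-related Actrt3, Cmss1, the O-mannose glycosyltransferase Pomgnt2 and the ubiquitin ligase Rnf180. Zfp493, a zinc finger gene, scored 34.60, and Rundc3b and the selenocysteine lyase gene Scly scored 34.30. Cenpw, a component of the inner kinetochore, stood at 34 with Fank1 and the orphan nuclear receptor gene Nr2c1. The phospholipid flippase gene Atp11a, Gatad1, Gprin2 and the spliceosome component Prpf38a scored 33.71, and Lats2, a kinase of the Hippo pathway, 33.56.

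Marker genes of the labelled cells and of others were looked up next. Of 12 neural progenitor markers, 9 had a single-gene peak and 0 had one of the strongest. Their median score was 7.46, against 16.93 over all 8998 genes with a single-gene peak. Hes1, a Notch target that keeps progenitors undifferentiated, was highest at 21.77, followed by the intermediate filament genes Vim at 12.95 and Nes at 10.39, with the Notch target Hes5 between them at 10.46. The receptor gene Notch1 scored 7.46, the glutamate transporter gene Slc1a3 7.42, the transcription factor gene Pax6 7.16, the fatty acid-binding protein gene Fabp7 6.56 and Sox9 6.40. Sox2, Prom1 and Sox1, the remaining markers, had no single-gene peak. Among markers of other cells, 4 of 9 neuronal ones had a single-gene peak and 1 had a strongest one, Syt1, the calcium sensor of synaptic vesicles, at 25.06. For glia 3 of 8 had a single-gene peak, for endothelium 2 of 7, for microglia and white blood cells 1 of 7 and for erythroid cells 3 of 6, all under 25. A peak score is no measure of expression, so these counts do not identify the cells. With 9 progenitor markers, 0 strongest peaks is also close to the 10.1% of all genes, and nothing is read from it.

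Nearly all of the strongest peaks lay at gene starts. The strand of the gene was known for 753 of the 912, from its RefSeq-listed starts. Of these, 742 (98.5%, 97.4 to 99.3) lay at the start alone, against 6046 of 6532 other single-gene peaks (92.6%, 91.9 to 93.2). With a score limit of 20 the share at the start alone was 98% (97.3 to 98.5), so a high share was not particular to the strongest peaks. Only 3 (0.398%) of the strongest lay at the far end alone, against 318 (4.87%) of the others. These 3 were at Actrt3, with a score of 34.90, Rhov, a small GTPase gene, with 30.43, and Zfpm1, which encodes a GATA cofactor, with 27.14. A further 8 (1.06%) touched both ends, against 168 (2.57%) of the others; Bmyc, a Myc-related gene of 843 bp, was the shortest of their genes. An end of a lncRNA gene lay in the same window for 130 of the 912 (14.3%, 12.1 to 16.7) and for 1343 of the 8370 others (16.0%, 15.3 to 16.9), with overlapping intervals.

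Within the start windows the strongest peaks sat a little inside the gene. Their midpoints had a median of 170.5 bp downstream of the outermost gene start (interval 144 to 187), with quartiles of 19.75 and 363 bp. Midpoints of the other start peaks had a median of 146.2 bp (135.5 to 154.5), with quartiles of -33 and 395 bp. The midpoint was downstream of the start in 579 of 742 of the strongest (78.0%, 74.9 to 81.0), against 70.7% of the others (69.6 to 71.9). It was within 500 bp of the start in 85.4% (82.7 to 87.9), against 77.4% (76.3 to 78.4). The peak itself covered the start in 96.6% of the strongest and in 92.9% of the others. The intervals of the medians overlapped, while the strongest peaks were less spread out around the start. Measured from whichever listed start of the gene was nearest, an option chosen after seeing the data, the median for the strongest was 73.75 bp, still downstream.

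**Figure D2:**
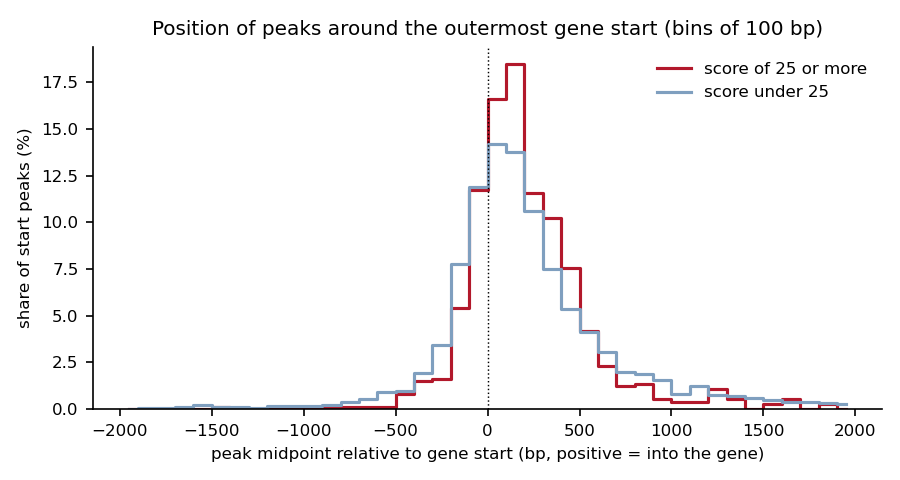
Share of start peaks (y, percent) by the distance of the peak midpoint from the outermost start of the gene (x, bp, positive into the gene, bins of 100 bp), for 742 peaks of score 25 or more in red and 6046 others in blue. Both lines are highest just downstream of the start, and the red line is narrower around its median of 170.5 bp.

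Peak width did not set the strongest peaks apart from those just below them. Their median width was 2277.5 bp (2245 to 2302) with a range of 1336 to 4320 bp, against 2155 bp (2143 to 2168) with a range of 596 to 7247 bp. Among start peaks, however, the median was 2319 bp at scores of 20 to 25, 2291 bp from 25 to 30 and 2276 bp from 30 upwards. Width comes from the same peak call as the score, so this is a description. The widest were at Rnf180 with 4320 bp, Edil3, which encodes an integrin ligand, with 4044 bp, the sphingomyelin synthase gene Sgms1 with 3891 bp, Zfp354a with 3825 bp and Wdr36 with 3700 bp. The narrowest were at Gclc, for the catalytic subunit of the first enzyme of glutathione synthesis, with 1336 bp, the salt-inducible kinase gene Sik1 with 1432 bp, Thoc2l with 1441 bp, Eid2b with 1474 bp and the carbonyl reductase gene Cbr1 with 1485 bp. High scores were therefore not limited to broad domains.

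Promoters under the strongest peaks were CpG-rich, and slightly more so than those under the other start peaks. The CpG ratio, observed over expected CpG in the 250 bases before and 50 after the start, had a median of 0.795 (0.782 to 0.815, n = 742). For the other start peaks it was 0.747 (0.740 to 0.753, n = 6046), and for genes with no boundary peak 0.224 (0.218 to 0.231, n = 7890). Only 16.7% (14.1 to 19.6) of the strongest had a ratio under 0.6, the usual limit for a CpG island, against 29.5% (28.4 to 30.7) of the others. A promoter entry was missing for 17.4% of the strongest and 22.0% of the other single-gene peaks, so these values hold for the genes with an entry. Median GC content was 64.0% under the strongest peaks, 61.0% under the other start peaks and 48.7% at genes with no boundary peak.

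Across scores, the ratio was higher in each bin up to 20 to 25 and much the same above, so it levelled off below the limit that defines the strongest peaks. Its median was 0.6003 at start peaks of score under 10, 0.719 from 10 to 15, 0.770 from 15 to 20, 0.794 from 20 to 25, 0.797 from 25 to 30 and 0.789 from 30 upwards. The share of promoters under 0.6 was 49.8%, 34.2%, 24.7%, 18.9%, 17.5% and 13.2% over the same 6 bins, lower in each bin, although the intervals of neighbouring bins from 20 upwards overlapped. The strongest peaks resembled those scoring 20 to 25 in CpG and differed mainly from those below.

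Genes with a strongest peak were long. Their median length was 39596 bp (36312 to 44062), against 25880.5 bp (25070 to 26812) for the 8086 genes whose single-gene peaks all scored under 25. At start peaks of genes with a known strand, length was greater in each score bin than in the one before. Its median was 19714 bp under a score of 10, 24973 bp from 10 to 15, 28816 bp from 15 to 20, 32325 bp from 20 to 25, 40867 bp from 25 to 30 and 42059 bp from 30 upwards. Over all single-gene peaks of score 30 or more the median was 38224 bp (31463 to 60647), so no increase was seen above 25 there. Put the other way, 5.49% (4.51 to 6.60) of genes under 10 kb with a single-gene peak had a strongest one, 8.89% (7.87 to 9.99) of genes of 10 to 30 kb, 12.7% (11.48 to 14.01) of genes of 30 to 100 kb and 13.8% (12.1 to 15.7) of longer genes. Above 10 kb, a smaller share of them had further peaks inside the gene than of other genes in the same length class, with intervals that did not overlap and no test of the difference. Interior peaks come from the same list as the score, so this is a description. Under 10 kb, 1.91% (0.231 to 6.71) had an interior peak, against 3.21% (2.44 to 4.12) of the genes with other single-gene peaks, with overlapping intervals. It was, from 10 to 30 kb, 5.47% (3.02 to 9.01), against 10.25% (9.12 to 11.5). From 30 to 100 kb, 10.7% (7.62 to 14.4) had an interior peak, against 19.7% (18.1 to 21.3) of the genes with other single-gene peaks. At 100 kb and over it was 28.9% (22.8 to 35.7), against 40.6% (37.9 to 43.3).

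**Figure D3:**
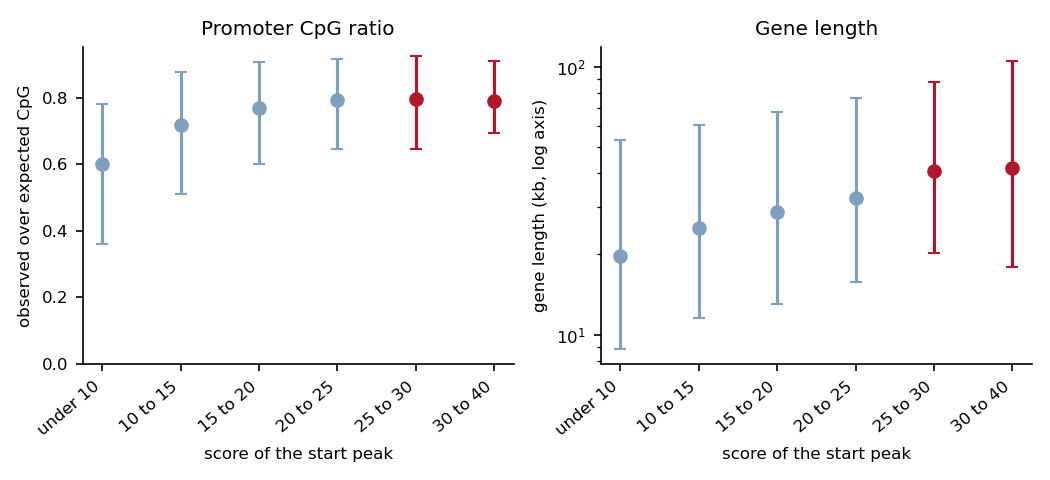
Median and quartiles (points and bars) of the promoter CpG ratio (left) and of gene length in kb on a log axis (right) for start peaks in 6 score bins (x), with bins of score 25 or more in red. The CpG ratio lies between 0.789 and 0.797 in the bins from a score of 20, while the median gene length of these start peaks is 42059 bp in the highest bin.

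Short motifs of factors that bind CpG-rich promoters were looked up in the same 300 bases, on both strands. GGGCGG, the GC box bound by Sp factors, was in 77.8% (74.6 to 80.7) of promoters under the strongest peaks, in 66.7% (65.5 to 67.9) under the other start peaks and in 46.3% of all 17492 promoters. The letters themselves contain a CpG. Among promoters with a ratio of 0.6 or more the shares were 82.5% (79.3 to 85.4) and 76.1% (74.8 to 77.4). GCGCATGCG, the motif of the respiratory regulator NRF1, was in 5.93% (4.34 to 7.88), against 3.27% (2.84 to 3.76) and 2.41% of all promoters. CACGTG, the E-box of USF and related factors, was in 13.6% (11.2 to 16.3), against 10.0% (9.29 to 10.8) and 7.91% of all. At CpG ratios of 0.6 or more, NRF1 letters were in 6.31% (4.53 to 8.53) against 4.29% (3.70 to 4.95), and CACGTG in 14.7% (12.02 to 17.77) against 11.6% (10.6 to 12.6), so those intervals met.

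Other motifs were about as frequent in both sets. CCGGAAG of the ETS family stood at 15.8% against 14.9% of the other start peaks and 11.9% of all promoters. CCAAT, bound by NF-Y, stood at 38.7% against 38.3%, with 39.2% of all. TTCCCGC, bound by E2F, was in 8.49% against 8.57%, with 6.01% of all. AAGATGGCG of YY1 was in 2.29% against 2.80%, with 1.92% of all, and TGACGTCA, the cAMP response element, in 3.77% against 3.09%, with 2.33% of all. The TATA box letters TATAAA were in 5.39% against 6.85%, with 13.3% of all promoters and 21.4% of those with no boundary peak. Letters of neural regulators were also about equally frequent. CAGCTG, an E-box of proneural factors, was in 15.5% against 15.2%, with 15.1% of all, and ACAATGG, a SOX site, in 1.75% against 1.77%, with 2.89% of all. A match is only a match of letters, and no motif listed contains the letters of another.

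Gene function was described through 50 lists of genes, mostly families defined by symbol. A list does not hold every gene of its function, so its share describes the listed genes alone. For each list the share of its genes with a strongest peak was taken over its genes with a single-gene peak, beside 10.1% for all. Lists held 251 of the 912 genes (27.5%) and 2522 of the 8086 others (31.2%), so most of the strongest peaks lay at genes outside them. The interval of the share included 10.1% in 46 of the 50 lists, lay above it in 1 and below it in 3, with no adjustment for the number of lists. The lists differ in size, gene length and CpG content, which are given where they stand apart. Shares among genes of one length class were added after seeing the data. The shares also depend on the score limit. At a limit of 20 in place of 25, 9 of the 50 lists stood on the other side of the share of all genes, and at 30 it was 11, where counts are small. The interval lay above all genes in 5 lists and below in 9 at 20. At 30 it lay above in 3 and below in 0. DNA replication was not among the lists above at either limit.

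**Figure D4:**
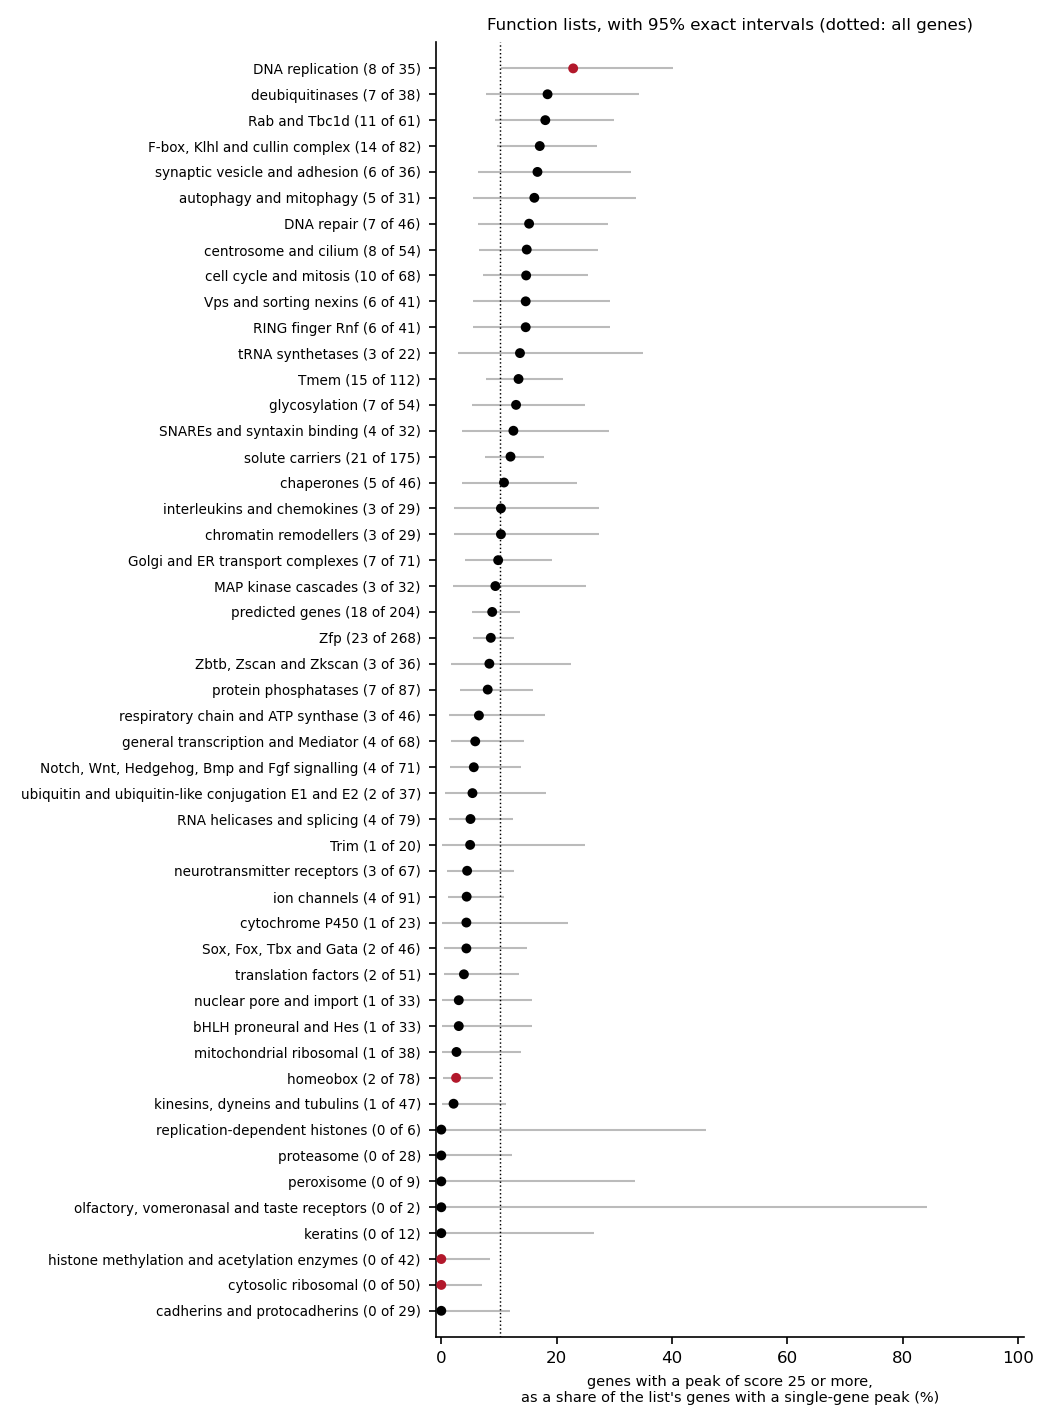
Share of genes with a peak of score 25 or more among the genes of each list shown that had a single-gene peak (x, percent; counts in the row names), with 95% exact intervals as grey bars and the dotted line at 10.1% for all genes. Red points mark the 4 lists whose interval does not include the line, DNA replication above it and homeobox, histone methylation and acetylation enzymes and cytosolic ribosomal genes below it.

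Cell division genes had the highest share of the named groups, 25 of 149 (16.8%, 11.2 to 23.8). Within them, DNA replication had 8 of 35 (22.9%, 10.4 to 40.1), the only list whose interval lay above all genes at the limit of 25. With a limit of 20 the interval of DNA replication included equality, at 1.296 times the share of all genes (0.774 to 1.88). The highest of this list were Gins3, a subunit of the GINS part of the replicative helicase, at 31.02, Gmnn, whose protein geminin blocks repeated licensing, at 28.04, and Chaf1b, a subunit of the histone chaperone CAF-1, at 27.38. Cell cycle and mitosis had 10 of 68 (14.7%, 7.28 to 25.4), an interval that included the share of all genes. With a limit of 20 this list stood at 0.953 times that share (0.615 to 1.35). Its highest were the kinetochore genes Cenph at 31.74 and Cenpe at 31.62 and the repressor gene E2f6 at 29.53. DNA repair had 7 of 46 (15.2%), among them Ddb2, which recognises ultraviolet damage, at 30.13 and the polymerase theta gene Polq at 29.53. The median score of the group was 17.90, little above the 16.93 of all genes, so its strongest peaks were not matched by a shift of the whole group. With a score limit of 20 in place of 25, its share was 1.15 times that of all genes (0.904 to 1.42), against 1.66 times (1.10 to 2.35) at 25.

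Protein turnover and membrane traffic had point shares above that of all genes, with intervals that included 10.1%. Protein turnover had 35 of 276 (12.7%, 8.99 to 17.2), or 1.25 times the share of all genes (0.887 to 1.70). It was 1.14 times (0.956 to 1.33) at a score limit of 20 and 2.57 times (1.38 to 4.32) at 30, where it was the only group whose interval lay above all genes. F-box, Klhl and cullin complex genes gave 14 of 82 (17.1%, 9.66 to 27.0), among them Kbtbd8 at 33.11 and Btbd7 at 31.92. Deubiquitinases had 7 of 38 (18.4%), with Usp25, then Uchl3 at 31.92 and Usp31 at 26.55. RING finger genes had 6 of 41, with Rnf168, the ligase that ubiquitylates H2A at DNA breaks, at 26.55 after Rnf169 and Rnf180. Autophagy and mitophagy had 5 of 31, with Stx17, Pink1 and Uvrag, an autophagy regulator, at 32.21. The ubiquitin-conjugating enzymes had 2 of 37, Ube2f at 33.11 and Ube2e1 at 25.35. Trim genes had 1 of 20, Trim32 at 25.35, and proteasome subunits 0 of 28, the highest being Psma3 at 24.76.

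Membrane traffic had 27 of 202 (13.4%, 8.997 to 18.85) and a median score of 19.09. At a limit of 20 its share was 1.315 times that of all genes (1.09 to 1.55), against 1.319 times (0.888 to 1.86) at 25 and 1.08 times (0.296 to 2.72) at 30. Rab and Tbc1d genes had 11 of 61 (18.03%, 9.361 to 29.98), with Rab11a, the GTPase of recycling endosomes, at 30.13, Rab12 at 28.64 and Tbc1d9b at 28.04. Their share at a limit of 30 was below that of all genes, at 0.894 times (0.0226 to 4.80). Vps and sorting nexin genes had 6 of 41, with Vps8, then Vps4a, which disassembles ESCRT-III, at 31.62 and the retromer subunit gene Vps26a at 29.15. SNAREs had 4 of 32, Sec22a at 27.97 and Stx1a at 26.55 following Stx17. With a limit of 20, Vps and sorting nexin genes stood at 1.66 times the share of all genes (1.138 to 2.175). SNAREs stood at 1.92 times (1.32 to 2.47) at that limit. Golgi and ER transport complexes had 7 of 71, with the Arf exchange factor genes Arfgef2 at 28.64 and Arfgef3 at 27.44.

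Genes of the membrane and the secretory pathway had 43 of 341 (12.6%, 9.28 to 16.6). Solute carriers had 21 of 175 (12%), led by the iron transporter gene Slc11a2 at 32.51, Slc16a10 at 31.92 and Slc45a3 at 31.02. Tmem genes had 15 of 112 (13.4%), with Tmem170b at 33.41, Tmem17 at 31.92 and Tmem160 at 31.38. Glycosylation genes had 7 of 54 (12.96%), with C1galt1, Pomgnt2 and Pigk, of GPI anchor attachment, at 27.44.

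The cytoskeleton group had 19 of 156 (12.2%, 7.49 to 18.4). Centrosome and cilium genes had 8 of 54, with Cep126 at 30.13, Cep55, which acts in abscission, at 28.93 and Cep85l at 27.38. Their share at a limit of 20 was 1.62 times that of all genes (1.17 to 2.07). Kinesins, dyneins and tubulins had 1 of 47, Kif20b at 26.25. Signalling had 10 of 119 (8.40%, 4.10 to 14.9), with Dusp12 at 32.21, Ppp4r4 at 31.92 and Ptpn21 at 28.93 among 87 phosphatase genes and Map2k1 at 30.13, Map3k3 at 27.09 and Map2k4 at 25.65 among 32 MAP kinase genes. The direction of the group turned with the score limit: its share was 0.829 times that of all genes (0.405 to 1.47) at 25, 1.307 times (1.02 to 1.61) at 20 and 1.375 times (0.285 to 3.92) at 30.

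The listed developmental regulators were at the opposite side. Only 9 of 228 had a strongest peak (3.95%, 1.82 to 7.36), and their median score was 12.04, against 16.93 for all genes. Homeobox genes had 2 of 78 (2.56%, 0.312 to 8.96), Pbx3, for a Hox cofactor, at 31.06 and En2, which patterns the midbrain and hindbrain, at 25.61. Sox, Fox, Tbx and Gata genes had 2 of 46, Foxk1 at 26.55 and Foxn2 at 25.35, and the bHLH list 1 of 33, Hes7, of the segmentation clock, at 25.32. Genes of the Notch, Wnt, Hedgehog, Bmp and Fgf pathways had 4 of 71, among them Dvl1, which relays Wnt signals, at 31.02, the Wnt co-receptor gene Lrp5 at 28.93 and the nuclear effector gene Tcf7 at 28.64. This list left out other genes of these pathways with a strongest peak, such as Nkd1 at 33.11 and Neurl1b at 31.02. The 228 developmental regulator genes were short, with a median length of 10259.5 bp against 27198.5 bp for all genes with a single-gene peak. Among genes of 10 kb or more, the share of developmental regulators was 0.534 times that of all such genes (0.218 to 1.07), against 0.389 times (0.180 to 0.726) at any length, so the interval then included equality. A comparison among CpG-rich promoters is void for this group, since 153 of the 228 genes (67.1%) and 4 of the 9 with a strongest peak have a promoter entry. At a limit of 20 the share was 0.469 times that of all genes (0.330 to 0.639).

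Neuronal genes had 13 of 223 (5.83%, 3.14 to 9.76), with a median score of 14.02. Ion channels had 4 of 91, among them the potassium channel gene Kcnv1 at 30.13 and the pacemaker channel gene Hcn3 at 29.23. Neurotransmitter receptors had 3 of 67, the serotonin receptor genes Htr4 at 28.64 and Htr7 at 26.22 and the GABA receptor subunit gene Gabra2 at 25.65. Cadherins had 0 of 29, the highest being Cdh22 at 23.27. Synaptic vesicle and adhesion genes had 6 of 36 (16.7%, 6.37 to 32.8, an interval that included 10.1%), among them the postsynaptic scaffold gene Homer3 at 28.93 and the synapsin gene Syn2 at 27.05. Neuronal genes were long, with a median of 66898 bp over the group. Their share was 0.575 times that of all genes (0.310 to 0.963) at a limit of 25 and 0.581 times (0.426 to 0.765) at 20. A promoter entry was there for 152 of the 223 genes (68.2%) and for 9 of the 13 with a strongest peak. At start peaks the median CpG ratio of the neuronal group was 0.587, against 0.752 for all genes. The cause of the lower share was not tested.

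Transcription genes had 30 of 372 (8.06%, 5.51 to 11.3) and chromatin genes 3 of 77 (3.90%, 0.811 to 11.0), both with intervals that included 10.1%. Transcription at a limit of 20 stood at 1.04 times the share of all genes (0.884 to 1.20), against 0.796 times (0.543 to 1.12) at 25, and chromatin at 0.589 times (0.334 to 0.927). Zfp genes, the largest family, had 23 of 268 (8.58%, 5.52 to 12.6), with Zfp493, then Zfp69 at 33.41 and Zfp239 at 32.21. Their share turned from 0.847 times that of all genes at 25 to 1.12 times (0.940 to 1.32) at 20. It was 1.02 times (0.332 to 2.35) at 30. Zbtb, Zscan and Zkscan genes had 3 of 36, Zbtb39 at 27.14, Zbtb34 at 26.25 and Zbtb42 at 25.95. General transcription factors and Mediator had 4 of 68, with Med30 at 30.72, the RNA polymerase III subunit gene Polr3e at 25.65 and Gtf2f1, of TFIIF, at 25.06. The list of histone methylation and acetylation enzymes had 0 of 42 (interval 0 to 8.41%), with Setd4 highest at 24.16. It left out some such enzymes, among them Smyd5 at 31.62 and Hat1 at 29.83, both with a strongest peak. At a limit of 20 the share of the listed enzymes was 0.540 times that of all genes (0.226 to 1.02), an interval that included equality. The list of chromatin remodellers had 3 of 29, with Smarcc2, a BAF complex subunit gene, at 30.43, Chd6 at 28.25 and Arid5b at 25.65. Arid5b is counted in this list but does not encode a BAF complex subunit. Replication-dependent histone genes had 0 of 6, with H1f5 highest at 13.72.

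The listed genes of translation, RNA and mitochondria had point shares below 10.1%, with the mitochondrial interval including it. Translation had 5 of 123 (4.07%, 1.33 to 9.23). Cytosolic ribosomal protein genes had 0 of 50 (interval 0 to 7.11%), with a median score of 11.58 and Rps27l highest at 23.86. They were very short, with a median of 3249.5 bp, and among genes under 10 kb alone the interval reached 1.32 times the share of all such genes. Translation factors had 2 of 51, Eif4e2 at 29.23 and Eif5a2 at 27.14, while tRNA synthetases had 3 of 22, the mitochondrial Nars2 at 33.41 and Yars2 at 28.04 and the cytosolic Eprs at 25.02. RNA helicases and splicing factors had 4 of 79, with Prpf38a, Dhx40 at 32.51 and Snrpa1 at 26.25. Nuclear pore and import genes had 1 of 33, Ipo11 at 26.79. The mitochondrial group held the lists of ribosomal and respiratory genes alone, and 4 of 84 (4.76%, 1.31 to 11.8) had a strongest peak. These were Mrps36 at 27.74, counted as ribosomal after its symbol alone, and Ndufaf6 at 30.72, Ndufc2 at 28.34 and Ndufa10 at 25.46 in the respiratory list. Other mitochondrial genes with a strongest peak, such as Crls1 at 33.41 and Mipep at 31.32, were outside this group. Chaperones had 5 of 46, near the background, with Dnajc21 at 32.81, Cct2 of the TRiC chaperonin at 27.14 and Dnajc3 at 26.66. With a score limit of 20, translation was at 0.764 times the share of all genes (0.531 to 1.04) and the RNA group at 0.868 times (0.611 to 1.17), so both intervals then included equality. The mitochondrial group of ribosomal and respiratory genes was at 0.926 times (0.623 to 1.28).

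Families of other tissues differed in how many genes had a boundary peak, shared ones included, with 4 of 1512 olfactory, vomeronasal and taste receptor genes, 13 of 105 keratin genes, 24 of 93 cytochrome P450 genes and 40 of 133 interleukin and chemokine genes. Of the receptor genes 2 had a single-gene peak, the higher being Vmn2r87 at 18.79, and of the keratin genes 12 had one, with Krt1 highest at 15.81. Cytochrome P450 genes had 1 strongest peak among 23, Cyp2r1, the vitamin D hydroxylase gene, at 30.13. The list of interleukins and chemokines, which also takes in receptor genes, had 3 of 29, the receptor genes Il17rd at 29.09 and Il6ra at 26.55, and Il17d at 25.06. Peroxisome genes had 0 of 9, with Pex5 highest at 24.76. Predicted genes had 18 of 204 (8.82%).

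No strongest peak lay on the X chromosome. There were 319 single-gene peaks on X and 0 with a score of 25 or more (exact interval 0 to 1.15%). Taken as 3 counts of the total, the limit for X is 0.940%. On autosomes it was 912 of 8962 (10.2%, 9.56 to 10.8). The median score was 10.14 on X and 17.00 on autosomes. The highest on X were at Mtmr1, a phosphoinositide phosphatase gene, and Slc9a7, a sodium-proton exchanger gene, both 20.58, and at the transcription cofactor gene Cited1, 20.28, and no other reached 20. The labels do not state the sex of the embryos. The single peak on Y scored 5.07. Among autosomes the share ran from 8.32% on chromosome 11 to 13.8% on chromosome 16, with overlapping intervals.

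**Figure D5:**
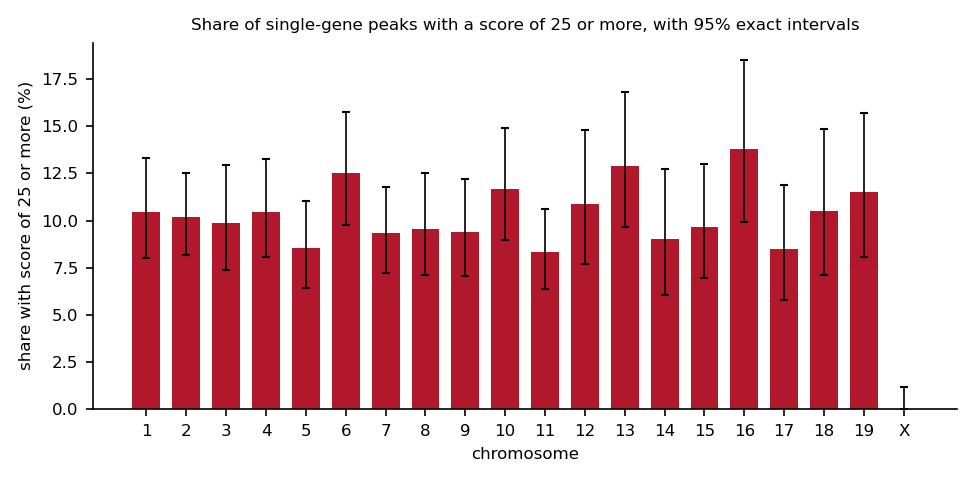
Share of single-gene peaks with a score of 25 or more (y, percent) on each chromosome (x), with 95% exact intervals as black bars. Autosomes lie between 8.32% and 13.8%, whereas X has 0 of 319.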

How the data were processed

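One deposited list without column names gave the start, end and score of each peak. The score was assigned by the authors and the list does not say what it measures. Peak names carry MACS, per the deposited file; for its version and settings, and for the use of the input, nothing is stated in the sources used here. Per the submitters' processing notes, CASAVA 1.4, FastQC and Bowtie2 2 were used with build mm9. Positions matched gene ends of GRCm38.p6 (RefSeq), were read as that build, and none was converted. Starts are counted from 1. The 21592 listed peaks carry numbers up to 32646, which shows that some of the numbered peaks are not in the list. The 46 peaks numbered after the last Y peak were left out (their highest score was 24.76). No reads were used, so depth is unknown.

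Gene ends came from RefSeq for 21774 protein-coding genes. Strand, starts and promoters came from RefSeq promoter windows of 17492 of them; the listed start nearest the outermost one was used, and genes without an entry were left out of start and promoter values. In 1672 of 1672 overlapping windows on opposite strands the sequences matched as reverse complements. A gene's score is that of its highest single-gene peak. Intervals are Clopper-Pearson for shares and order-statistic intervals for medians, and the limit for a count of 0 on X is 3 counts of the total.

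The strongest peaks and the gene lists were chosen with earlier results of these data known. Genes were named by rule: the 25 highest, predicted genes aside; the 3 highest of each list, or the highest other gene of a list with none; the 5 widest, narrowest, and nearest to the limit on either side. Some genes this rule takes, and 1 list, are not reported here. Python 3.11.15, numpy 2.4.6, pandas 2.3.3, scipy 1.17.1 and matplotlib 3.10.9 were used, and the assignment was tested on simulated data. Alternatives were other score limits, windows, overlaps, denominators and promoter lengths.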

Additional observations from a re-analysis of the deposited data

How the results depend on the processing

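No paired analysis was possible because there was 1 ChIP library and no test. Of 189 values recomputed for the main descriptions, 170 stayed within counting error or within 1.5 times and 19 moved. No share called above or below all genes changed side. For the remaining lists and groups 643 of 712 stayed. Staying means lying inside the interval of the main value, which is wide for small lists, so these counts say little about them. A share could stay and still cross that of all genes, as that of the signalling group did. A score limit of 20 gave 2779 strongest peaks, and a limit of 30 gave 165. The share of genes was then 30.86% and 1.834%, and 4.188% over all protein-coding genes. At a limit of 20, median gene length was 35100 bp and GGGCGG was in 73.65%. At 30, midpoints had a median of 205 bp. The share of strongest peaks at gene starts alone was 96.6% with 2 kb windows and 99.47% with at least 50% of the peak inside the window. In the 250 bases before the start alone, the CpG ratio was 0.7519 and GGGCGG was in 73.45%.

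Chosen after seeing the data were gene length, CpG-rich promoters and the nearest listed start. The share of genes was 5.486% under 10 kb, 11.39% at 10 kb or more and 12.57% at CpG ratios of 0.6 or more. Among CpG-rich promoters the share relative to all genes came out at 0.136 for developmental regulators and 0 for homeobox genes. Both values are void: 4 of the 9 developmental regulators and 0 of the 2 homeobox genes with a strongest peak have a promoter entry. It was 0 for neuronal genes under 10 kb. The nearest listed start gave 73.75 bp. The cause of the other shifts was not tested. DNA replication stayed above all genes in direction, at 1.296 times with a limit of 20, with an interval that then included 1. Shares of small lists rest on few genes, scores on 1 library of unknown depth, and a peak missing from the list may have been in the longer one.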

Other observations

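Some small families had several genes with a strongest peak; they were picked out after their values were seen, so the counts describe these genes and carry no weight beyond them. All 3 genes of the complex that activates the GTPase of Ral proteins had one, the catalytic Ralgapa1 at 32.51 and Ralgapa2 at 25.95 and the shared subunit gene Ralgapb at 25.65. Of 7 genes of the Hippo kinase core, which restrains growth, 3 had one, Lats2 at 33.56, the scaffold gene Sav1 at 30.91 and Stk3 at 28.34. Stk4 at 20.88 and Mob1b at 19.39 were lower, and Lats1 and Mob1a had peaks shared with another gene, at 22.97 and 16.70. Of 7 genes of Rab11 and its interacting proteins, which act in endosome recycling, 4 had one, Rab11a and Rab11fip1 at 30.13, Rab11fip5 at 27.14 and Rab11fip2 at 25.06. Rab11fip4 at 18.80 and Rab11fip3 at 16.41 were lower, and Rab11b had no boundary peak in the list. Both interferon gamma receptor genes had one, Ifngr2 at 29.53 and Ifngr1 at 28.34.

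At the 912 genes with a strongest peak lay 16 further single-gene peaks under 25, at the same or the other end of the gene.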
